A study of Mus musculus with 8 samples.

Results

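Stop codon regions are stretches of mouse mRNA in which an m6A peak summit lay within 200 nt of the stop codon, counted along the spliced transcript. A summit is the position of highest signal in a peak. It was counted when it fell in the coding sequence or 3′ UTR of the complete coding transcript with the longest coding sequence of exactly 1 gene (stop summit). Intervals of the 4 peak lists were merged where they shared 1 bp, and 2865 of the 11361 merged regions held at least 1 stop summit. These 2865 stop regions belonged to 2836 genes, which were 55.2% of the 5141 genes with any summit in an exon of the chosen transcript. Only 1 stop region held stop summits of more than 1 gene, 30 genes had more than 1 stop region, and the median region was 387 bp wide.

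The lists came from m6A-RIP-seq, in which fragmented total RNA is pulled down with an antibody against N6-methyladenosine (IP) and sequenced beside the RNA before pulldown (input). Primary vascular smooth muscle cells (VSMCs) were taken from the descending aorta of young adult C57BL/6J mice after the adventitia was stripped and the endothelium scraped off, and were transduced with lentivirus. The shCTR cells carried a nontargeting hairpin directed at a plant microRNA sequence, from a vector that also encodes GFP, and the shMettl14 cells carried 1 hairpin against Mettl14, with 2 replicates, A and B, per hairpin. The study asked where m6A lies in VSMC mRNA and how it changes when Mettl14 is silenced. The labels do not say whether A and B were separate cultures, so the spread between them may be technical. Smooth muscle identity could be read only in part from these lists, because a peak needs both the transcript and the mark. Of 12 smooth muscle markers, Cald1, Lmod1 and Myh11 had an exonic summit, against 4 of 8 endothelial, 0 of 8 macrophage and 3 of 8 adventitial fibroblast markers. The endothelial genes Cdh5 and Erg had stop regions in all 4 lists. The part of other cell types in the results was not tested.

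m6A is an adenosine that carries a methyl group within the mRNA chain. The mark is written in the nucleus by a complex in which METTL3 catalyses the transfer and METTL14 helps to hold the RNA, mostly at sites related to GGACT, and it is read by YTH domain proteins that affect splicing, translation and decay. Marked sites are known to cluster in long internal exons and in the last exon near the stop codon, and exon junction complexes, which splicing leaves on mRNA just before each junction, are known to keep the mark away from their surroundings.

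The sequences below show what the highest stop regions, the regions of genes named by the study and the motifs that run into a stop codon look like. In the first 8 lines these are the 29 nt of transcript around the GGACT nearest to the median summit or, where none lay within 50 nt of it, the nearest GGACN (sense strand, 5′ to 3′, DNA letters of the GRCm38 annotation). Capitals mark the motif that set the line, and no other copy. The first 5 lines are the highest-ranked regions with such a motif and its flanks in a single exon.
Gmeb2: tgctgtagcagaGGACCatgagcagaagt
Ier5l: gcctcggcgcctGGACTcgagccattgtc
Herc2: gactacttgacaGGACActaagatggaaa
Mocs3: gacatcgtggggGGACTcatggcctgggc
Hivep2: tgatggtgaaaaGGACActtttggtacat
The next 3 lines belong to genes the study names in its m6A results.
Col1a1: gaccaggaattcGGACTagacattggccc
Klf4: cttttccaggtcGGACCaccttgccttac
Lpar2: cctttaaaccttGGACTgaggcaggagac
In the last 3 lines, chosen for this whatever their distance from the summit, the final T of the capitalised GGACT is the first base of the stop codon.
Xxylt1: acccatcccagaGGACTaggcaccagctc
Ubtd1: cccaccaccccaGGACTgacggactgacg
Slc35b4: ggatgacaagaaGGACTgaggtctgcctg
The windows lie at chr2:181253785-181253813 on the minus strand (Gmeb2), chr2:30472800-30472828 on the minus strand (Ier5l), chr7:56231112-56231140 on the plus strand (Herc2), chr2:168231955-168231983 on the plus strand (Mocs3) and chr10:14149565-14149593 on the plus strand (Hivep2). Those of the study's genes lie at chr11:94951575-94951603 on the plus strand (Col1a1), chr4:55528145-55528173 on the minus strand (Klf4) and chr8:69826598-69826626 on the plus strand (Lpar2). Those over stop codons lie at chr16:30957328-30957356 on the minus strand (Xxylt1), chr19:42033956-42033984 on the plus strand (Ubtd1) and chr6:34158370-34158398 on the minus strand (Slc35b4). The motif of Lpar2 is in the 3′ UTR, with its A 10 nt past the first base of the stop codon. That of Gmeb2, Ier5l, Herc2, Mocs3, Hivep2, Col1a1 and Klf4 is in the coding sequence, with its A between 4 and 155 nt before the stop codon.

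The shCTR A list held 2373 stop summits and shCTR B 1894, while shMettl14 A held 2801 and shMettl14 B 2060. They came from lists of 11158, 8655, 13675 and 9256 summits. They made up 26.8%, 26.8%, 25.4% and 27.1% of the summits in exons of chosen coding transcripts. The shares of the 2 groups overlapped, and shMettl14 was 0.504 percentage points below shCTR, a difference of −0.504 (two-sided exact permutation test over lists, p = 1; 2 lists against 2 cannot go below 0.333). The sign of the difference turned with windows of 100 nt (0.0318) and 400 nt (0.0631) and without shMettl14 A (0.354), and it was −1.36 without shMettl14 B. By genes, 48.7%, 45.2%, 50.4% and 47.3% of those with an exonic summit in a list had a stop summit in it, in the same order of lists. Fewer transcripts and less m6A per transcript cannot be told apart here, since the deposited lists give no expression level.

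Within the window the summits were spread broadly over both sides of the stop codon. The 50 nt bin just past it held 13.4% ± 0.591 of stop summits (SD, n = 4 lists), the highest bin, 50 to 99 nt past the stop codon, held 14.6% ± 0.780, and the lowest, at the far coding edge, held 9.25% ± 1.08. Summits on the 3′ UTR side made up 53.6%, 51.6%, 53.5% and 53.8% in the 4 lists, and the median summit lay 4 to 14 nt past the first base of the stop codon. The groups differed by 1.04 points on the UTR side (two-sided exact permutation test, p = 0.667), and by 0.00633 without shCTR B and 2.07 without shCTR A. At the edge of the window the rule cut through a continuous distribution, with 138 to 225 summits per list in the last 20 nt inside it and 127 to 208 in the first 20 nt outside. Median within-list percentiles of fold enrichment were 58.7 to 63.1 inside and 55.8 to 62.1 outside.

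Most stop summits lay in the last exon, as did most of the window by its construction. In the 4 lists 98.4%, 98.6%, 98.3% and 98.3% of stop summits fell in the terminal exon, against 89.4%, 89.5%, 89.5% and 89.7% of window positions in the genes with an exonic summit, a difference that was not tested. Between 98.2% and 98.6% of stop summits were in the exon that holds the stop codon. The stop codon itself lay in the terminal exon in 96.8% of the intron-containing genes with an exonic summit. Distance from the last exon junction was examined against the positions that the windows offer. For every intron-containing gene with an exonic summit, each transcript position inside the window was counted, and summits were expressed per kb of such positions.

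The rate of stop summits was low just past the last exon junction and higher further into the terminal exon. It was 0.364 ± 0.103 summits per kb over the first 50 nt of the terminal exon (SD, n = 4 lists), 0.618 ± 0.146 at 50 to 99 nt, 1.02 ± 0.0852 at 100 to 149 nt and 1.65 ± 0.217 at 150 to under 200 nt. It then reached 2.04 ± 0.103 at 200 to 249 nt and 2.18 ± 0.102 at 250 to 299 nt. In the last 50 nt before the junction it was 0.0259 ± 0.00226, from 8 summits over the 4 lists. Every list had its lowest rate in that bin.

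**Figure D1:**
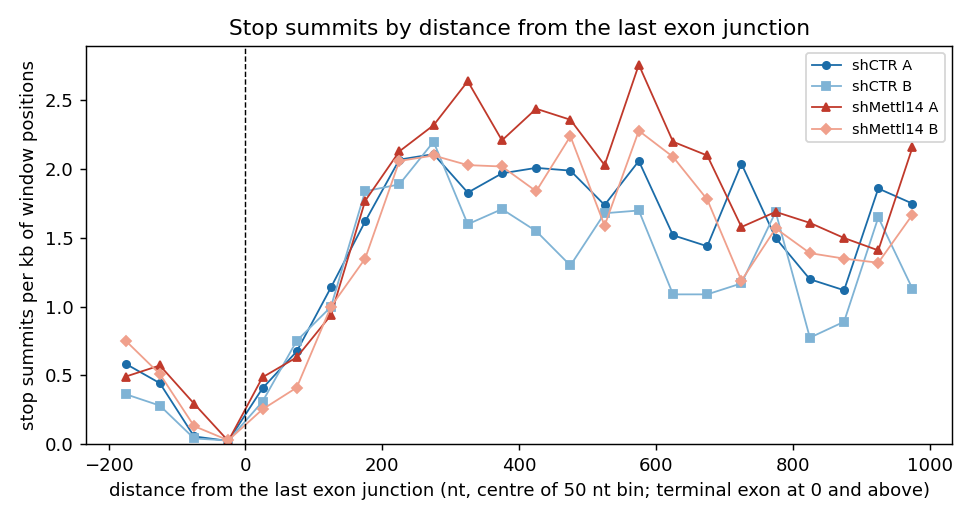
Stop summits per kb of window positions (y axis) by distance from the last exon junction in nt (x axis, 50 nt bins, the terminal exon starts at 0), with 1 line for each of the 4 peak lists. The lists rise together from 0.254 to 0.487 in the first 50 nt of the terminal exon to 2.10 to 2.32 at 250 to 299 nt.

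The rate within 150 nt past the junction was 0.442, 0.464, 0.341 and 0.336 times the rate further downstream in shCTR A, shCTR B, shMettl14 A and shMettl14 B. The mean ratio was 0.396 ± 0.0670 (SD, n = 4 lists), below 1 in 4 of 4 lists (two-sided exact sign-flip permutation test of the log2 ratio, p = 0.125, the smallest that 4 lists allow). Both shMettl14 ratios were below both shCTR ratios, and this difference between groups was not tested. The lists share most of their transcripts and regions, so the 4 values are not 4 independent surveys of genes. MACS2 places fragments on the genome rather than on spliced RNA, and between 6.12% and 16.8% of the intervals with a stop summit in the terminal exon reached into the intron before it. The share was 12.3% and 16.8% in shCTR A and B, and 8.78% and 6.12% in shMettl14 A and B, and its part in the low rate near junctions was not tested.

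The share of genes with a stop summit was lowest in each list where the stop codon lay closest past the last junction. Among genes with an exonic summit, 26.4% ± 1.41 had one when the junction was under 100 nt before the stop codon (SD, n = 4 lists), 43.0% ± 1.91 at 100 to under 200 nt, 58.9% ± 1.45 at 200 to under 400 nt and 63.1% ± 6.06 at 400 to under 800 nt. The share was 49.3% ± 4.70 at 800 nt or more and 59.0% ± 2.54 for genes without introns in the chosen transcript. Where the stop codon lay upstream of the terminal exon it was 32% ± 2.35. The ranges over lists of the classes under 100 nt (25% to 28.3%), 100 to under 200 nt (40.3% to 44.4%) and 200 to under 400 nt (57.2% to 60.3%) did not overlap, while those at 200 to under 400 nt, 400 to under 800 nt and no intron did. These shares were not tested and are descriptions of the lists.

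The place of the summit moved with the junction too. Its median was 104.4 nt past the stop codon in the class under 100 nt, 77.1 nt past it at 100 to under 200 nt and 7.12 nt past it at 200 to under 400 nt (means of 4 list medians). It was 60.8 and 69.1 nt before the stop codon in the classes at 400 to under 800 nt and 800 nt or more, with means of −60.8 and −69.1. In the class under 100 nt, 86.6% ± 5.37 of stop summits were on the UTR side, against 33.1% ± 2.11 at 800 nt or more and 48.1% ± 3.62 in genes without introns.

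**Figure D2:**
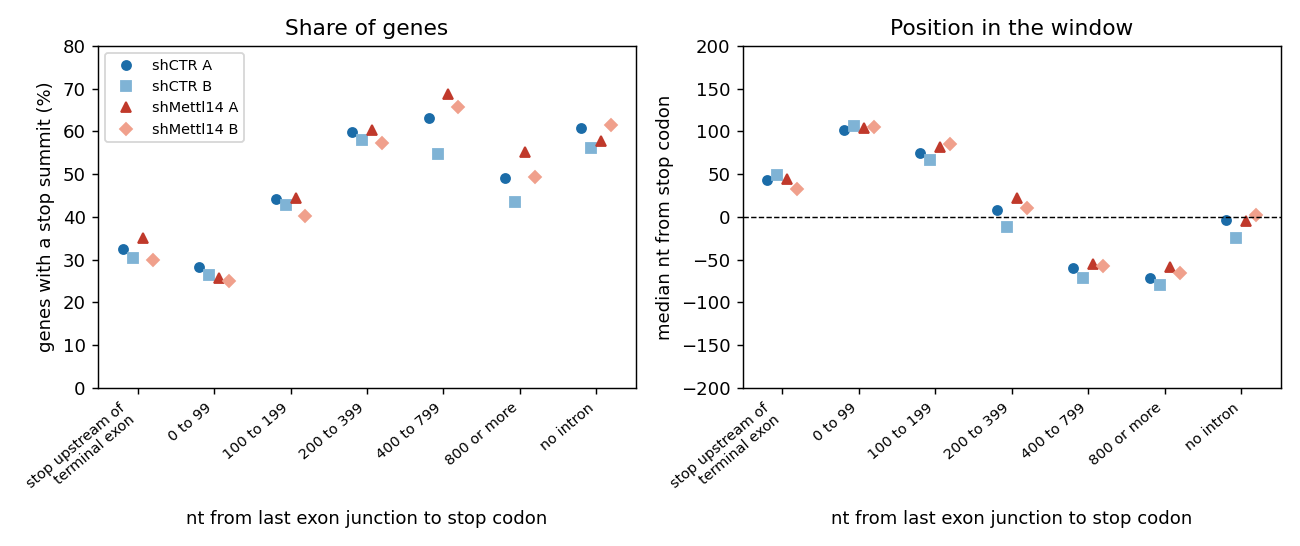
Genes with an exonic summit were grouped by the nt between the last exon junction and the stop codon (x axis), and points are the 4 peak lists. The left panel gives the percent of these genes with a stop summit, between 25% and 28.3% under 100 nt and between 54.7% and 68.8% at 400 to under 800 nt, and the right panel the median position of stop summits in nt from the stop codon, from 102 to 106 nt under 100 nt to between −80 and −59 nt at 800 nt or more.

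Outside the window the gene classes differed as well. Where the junction lay from 100 to under 200 nt before the stop codon, the rate over all summits was 0.114 ± 0.0803 per kb at 200 to 300 nt before the stop codon, 1.84 ± 0.0419 in the first 100 nt past it and 0.862 ± 0.173 at 300 to under 400 nt past it. Where the junction lay 800 nt or more before it, the rate was already 1.40 ± 0.256 at 500 to 600 nt before the stop codon, highest at 2.11 ± 0.147 at 100 to 200 nt before it, and 0.352 ± 0.0516 at 300 to under 400 nt past it. In genes without introns it was highest in the 100 nt on either side of the stop codon, at 1.87 ± 0.0932 and 1.82 ± 0.203.

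**Figure D3:**
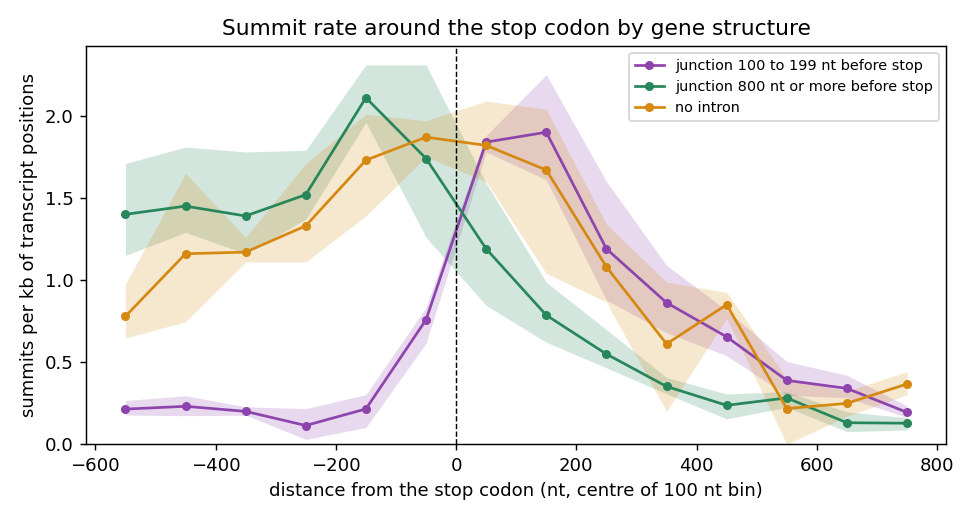
Summits per kb of transcript positions (y axis) by distance from the stop codon in nt (x axis, 100 nt bins) for 3 classes of genes by the distance from the last junction to the stop codon. Lines are means of the 4 peak lists and bands run from the lowest to the highest list; the class with the junction from 100 to under 200 nt before the stop codon rises at the stop codon, and the class at 800 nt or more peaks before it.

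Intron-containing genes with a stop summit were set beside those with exonic summits elsewhere only. In 4 of 4 lists their median terminal exons and 3′ UTRs were longer and their median coding sequences shorter. A longer coding sequence offers more room for a summit outside the window, which can favour the last difference. The median distance from the last junction to the stop codon was 284, 275, 304 and 328 nt in genes with a stop summit, and 179, 189, 171 and 182 nt in the others, in the same order of lists. The mean difference was 117.5 nt ± 27.1 (SD, n = 4 lists, 4 of 4 above 0; two-sided exact sign-flip permutation test, p = 0.125). Differences of list medians averaged 327.8 nt ± 63.9 for the terminal exon, 299.6 nt ± 46.0 for the 3′ UTR and −536.6 nt ± 21.6 for the coding sequence, each with the same exact p = 0.125, so that none of these 4 comparisons could pass 0.05 before or after adjustment. Over all genes, with or without introns, stop codon usage was close in both sets, with TGA in 51.6% of genes with a stop summit and 50.5% of the others. Exonic summits outside the window were also found in 1806 of the 2836 genes (63.7%), whereas in 1030 genes the window held every exonic summit.

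Stop summits ranked above other exonic summits in fold enrichment, the ratio of IP to local background at the summit. Because the lists differ in size and background, each value was turned into a percentile of its own list. The median percentile was 57.3 for stop summits and 51.1 for other exonic summits in shCTR A, and 58.1 against 51.2 in shCTR B. The shMettl14 lists gave 57.8 against 50.5 (A) and 58.7 against 51.0 (B). The difference was 7.04 points ± 0.643 (SD, n = 4 lists), above 0 in 4 of 4 lists (two-sided exact sign-flip permutation test, p = 0.125, the smallest possible). By the recovered number of overlapping IP fragments (pileup), it fell from 7.04 to 2.34 points ± 1.62. It was above 0 in 3 of 4 lists and 0 in shMettl14 A (two-sided exact sign-flip permutation test, p = 0.250). Within the window, median percentiles were higher where the junction was 400 to under 800 nt before the stop codon (67.8 ± 0.876) and in genes without introns (66.9 ± 1.97) than at 100 to under 200 nt (49.9 ± 1.69), with ranges over lists that did not overlap.

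The share of summits with a GGACT nearby was higher for stop summits than for other exonic summits in 4 of 4 lists. A GGACT within 50 nt on the sense strand was present at 24.4%, 25.3%, 22.2% and 23.5% of stop summits in shCTR A, shCTR B, shMettl14 A and shMettl14 B, and at 20.2%, 22.3%, 18% and 20.7% of the others. Of all positions in the stop codon windows of the same genes, 13.3% to 13.6% had one as near. The difference between stop and other summits was 3.58 points ± 0.724 (SD, n = 4 lists, 4 of 4 above 0; two-sided exact sign-flip permutation test, p = 0.125). GGACT density was highest in the 20 nt just before the stop summit, at 3.08 ± 0.305 sites per kb, and was 1.10 ± 0.0907 in the 20 nt that end 200 nt past it. Other exonic summits past the window in the 3′ UTR had a nearby GGACT in 20.1% to 25.5%, close to the share of stop summits, and those in the coding sequence before it in 16.8% to 20.9%.

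In a small set of genes the motif runs into the stop codon, as in Xxylt1, Ubtd1 and Slc35b4 above. GGACT ended on the first base of the stop codon in 220 of 21515 chosen transcripts (1.02%). Of 78 such genes with an exonic summit, 53 (67.9%) had a stop summit, against 55.0% of the other 5063 genes. The shares were 62.5%, 58.7%, 65.6% and 62.9% in the 4 lists, above the 48.5%, 45.0%, 50.1% and 47.0% of other genes in each, which was not tested. Summits in these genes were not always at the motif: between 25% and 39.5% lay within 50 nt of the stop codon, against 24.7% to 27.0% in other genes. Slc35b4, a sugar nucleotide transporter gene, had its highest stop summit 5 to 29 nt before the stop codon in all 4 lists, at fold enrichments of 16.9, 18.5, 18.9 and 19.1. Ubtd1 had it 62 to 94 nt before, at 22.4, 24.4, 19.1 and 19.2. In Xxylt1, which encodes a xylosyltransferase, it was 72 to 97 nt before in 3 lists and 139 nt past the stop codon in shCTR B, at 24.5, 29.5, 20.7 and 23.6.

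The 10 highest stop regions by mean percentile, among those with a peak in all 4 lists, had mean percentiles of at least 99.3. Gmeb2, a DNA-binding modulator of the glucocorticoid response, had fold enrichments of 37.4 and 33.6 in shCTR A and B and 32.6 and 34.7 in shMettl14 A and B, with the median summit 32.5 nt before the stop codon. Herc2, a very large ubiquitin ligase gene with 93 exons, had 25.2, 38.7, 24.9 and 33.3 in the same order. In both genes the groups overlapped.

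The zinc finger genes Hivep2, Zfp703 and Zfp503 and the homeobox gene Tshz1 were also in this set, with fold enrichments from 23.1 to 37.6 over all lists. Their last junctions lay 822, 1524, 1626 and 3212 nt before the stop codon. Foxo3, a forkhead factor, is a different case: its stop codon lies 38 nt before the last junction, and the region ranked here (chr10:42185911-42186455) lies beyond that intron. It had stop summits only in shCTR A and B, at 32.3 and 31.5, although all 4 lists had a peak in the region. These summits lay 190 and 179 nt past the stop codon, near the edge of the window. A second Foxo3 region on the coding side had stop summits in all 4 lists, at 14.5, 16.9, 16.6 and 15.9.

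Genes without introns in the chosen transcript had 140 of the 2836 stop genes, 4.94%, against 4.32% of all genes with an exonic summit. Ier5l, an immediate early response gene, had fold enrichments of 25.7, 34.2, 27.1 and 34.1, and Mocs3, an enzyme of molybdenum cofactor synthesis, had 27.0, 38.8, 21.8 and 33.6. Fbxl14, Hexim1 and Jun completed the highest 5, between 19.1 and 30.4. Where the stop codon lay upstream of the terminal exon, 59 genes had a stop summit. Ranked between the 2 Foxo3 regions, Zhx1 and Znrf1 had stop summits only in the shMettl14 lists, although all 4 lists had a peak in each region. Those of Zhx1 lay at −180 and −192 nt, near the edge of the window, and those of Znrf1 at 79 and 59 nt. Twist1, a mesenchymal transcription factor, had stop summits in all lists at fold enrichments of 15.9, 13.8, 13.5 and 18.9. The genes with most stop summits over the lists were Akap5 (11), Lrrc8a (10) and Aebp1, Cavin2 and Edem3 (9 each).

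The gene lists were set beside the share of all genes with an exonic summit that had a stop summit (55.2%), and no difference from it was tested. Of 21 immediate early genes with an exonic summit, 17 had a stop summit (81.0%). Jun had fold enrichments of 20 and 20.3 in shCTR and 19.1 and 26.7 in shMettl14, Jund 17.7, 23.5, 20.1 and 21.4, and Egr1 13.9, 16.8, 18.1 and 23.0. Fosl2 had 16.4 and 24.1 in shCTR A and B and 8.78 and 10.1 in shMettl14 A and B. These groups did not overlap, but the highest stop summit lay 195 and 174 nt past the stop codon in shCTR and at −2 and 17 nt in shMettl14. The whole region had a rank change of −0.546 in normal score units that did not pass the test (limma on all regions, unadjusted p = 0.302). Egr2, Egr3, Klf6 and Zfp36 had exonic summits elsewhere only.

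Of 19 growth factor receptors and ligands with an exonic summit, 15 had a stop summit (78.9%). Igf1r, the receptor of insulin-like growth factor, had fold enrichments of 30.4, 23.0, 18.4 and 37.4, and S1pr1, a sphingosine phosphate receptor, 14.4, 15.3, 9.29 and 13.3. Pdgfa, a platelet-derived growth factor chain, had a single stop summit, in shMettl14 A, although all 4 lists had a peak in the region. In the TGF-beta and BMP pathway it was 14 of 20 (70.0%), led by the receptor gene Acvr2a at 29.6, 16.7, 21.5 and 28.2 and by Acvr1, Smad3 and Tgfb2. Acvr1 had stop summits only in the shMettl14 lists, at 4 and −15 nt. Smad3 had them only in the shCTR lists, at 157 and 178 nt, while all 4 lists had a peak in both regions. A stop summit in 1 group thus tells where the summit fell, not that the other group had no peak. In Acvr2a the highest stop summit lay at 97, 94, 103 and 105 nt, and in Tgfb2 at 76, 85, 168 and 164 nt. Both were further past the stop codon in shMettl14. Whether such shifts carry summits over the window edge was not tested.

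Matrix genes had 18 of 26 (69.2%). Fbn1, which encodes fibrillin of elastic fibres, had 7.58, 12.1, 9.89 and 15, and Col5a1 had 8.81, 11.8, 9.71 and 11.1. Adamts1, a secreted protease, had stop summits only in shMettl14 A and B, at 11.3 and 20.5, although all 4 lists had a peak in the region. The highest of them lay at −164 and −183 nt from the stop codon, towards the edge of the window. Regulators of smooth muscle transcription had 10 of 13 (76.9%), with Mrtfa, a cofactor of serum response factor, at 15.7, 14.7, 15.6 and 17.3, and Klf2, a shear stress-responsive factor, at 23.1, 14.5, 11.8 and 16.4. Sox9 had 1 stop summit, in shMettl14 A, and a peak in the region in all 4 lists. Chromatin regulators had 14 of 22 (63.6%), with the acetyltransferase gene Ep300 at 23.4, 15.5, 17.5 and 19.8, followed by Arid1b, Dnmt3a and Ncor1.

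In the contractile, m6A machinery, exon junction complex and splicing factor lists the share was below the 55.2% of all genes. Of 6 contractile genes with an exonic summit, Lmod1 and Myh11 had a stop summit. Lmod1, which nucleates actin filaments, had 7.64, 4.71 and 5.2 in shCTR A, shCTR B and shMettl14 A and no stop summit in shMettl14 B. Of 12 genes of the m6A machinery with an exonic summit, 5 had one (41.7%): the writer cofactors Rbm15, Rbm15b and Cbll1 and the readers Ythdf2 and Ythdf3. Rbm15 had 20.7, 24.3, 13.1 and 20.4, and Mettl14 itself had no exonic summit in any list, so these lists give no reading of the knockdown. Of 8 genes of the exon junction complex and of nonsense-mediated decay with an exonic summit, 0 had a stop summit. Their nearest summits lay from 254 nt past the stop codon in Upf2 and 298 nt in Upf1 to far into the coding sequence in Smg6, at −2768 nt. Among splicing factors 1 of 4, Srsf5, had a stop summit, and 0 of 30 cytosolic ribosomal protein genes had any exonic summit. The last count does not say that these transcripts lack m6A, since short terminal exons, expression and depth also bear on a peak and were not tested.

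Of 9 genes the study names in its m6A results, 7 had a stop summit (77.8%). The study chose them on these samples, so they are not independent evidence of a direction. Klf4, a factor that represses contractile genes, had fold enrichments of 7.16 and 4.87 in shCTR A and B and 5.94 and 6.75 in shMettl14 A and B, and its groups overlapped. Col1a1, the main fibrillar collagen chain, had 5.04, 4.16, 3.63 and 4.38, Col5a2 6.31, 9.47, 8.70 and 10.1, and the matrix gene Fbln2 4.77, 4.99, 4.36 and 6.10.

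Lpar2, a lysophosphatidic acid receptor gene, had a stop region only in shCTR A and B, at 7.92 and 5.46. In its chosen transcript the last junction lies beyond the stop codon (junction to stop −1289 nt), and the pileups were 8 and 6 fragments. Pdgfra, a receptor of platelet-derived growth factor, had 1 stop summit, in shCTR B at 186 nt past the stop codon and a fold enrichment of 16, although all 4 lists had a peak in the region. Pdgfrb and Col18a1 had exonic summits but no stop summit, the nearest at 217 nt and −3426 nt from the stop codon.

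**Figure D4:**
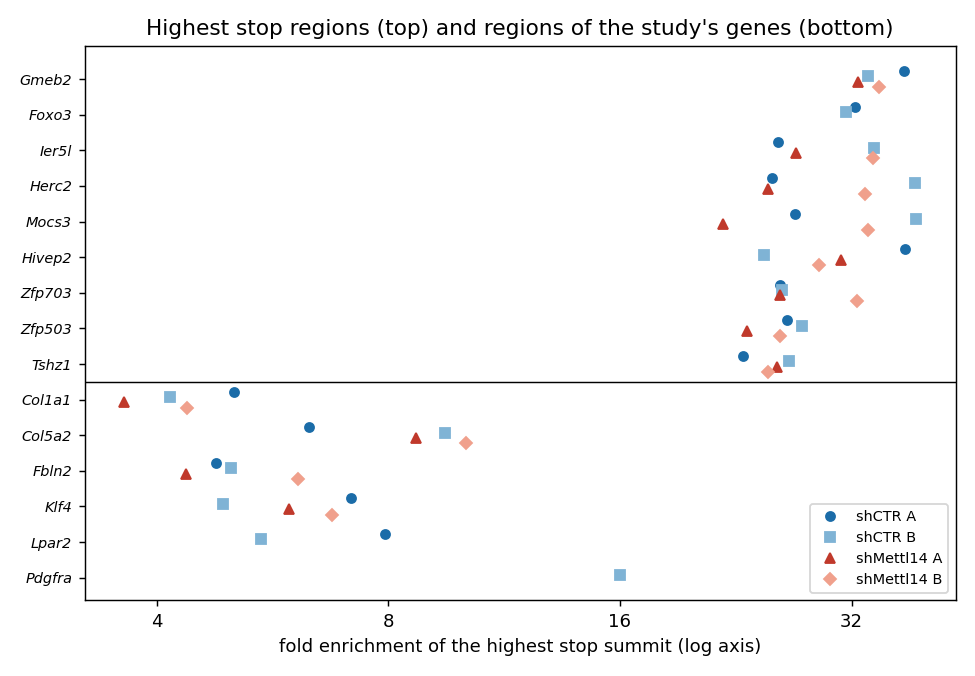
Fold enrichment of the highest stop summit (x axis, log scale) in each of the 4 peak lists for 9 of the 10 highest stop regions and 6 of the 7 genes with a stop summit among those the study names (y axis). The first set runs from 21.8 to 38.8 and the second from 3.63 to 16; a list with no stop summit in the region has no point.

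The highest recovered pileup in each region was compared for the study's genes. Col1a1 had 66 and 48 fragments in shCTR A and B and 37 and 31 in shMettl14 A and B, and Klf4 had 48, 40, 34 and 24. The Klf4 maximum lay at a summit outside the 200 nt window. Its stop summits reached 27, 18, 21 and 19 fragments, and these groups overlapped. This comparison was added after the data were seen. In 5 of the 6 stop regions of these genes with a peak in all 4 lists, both shMettl14 pileups were below both shCTR pileups. The same held for 37.0% of all 4929 regions with a peak in all 4 lists and for 41.1% of the 1804 stop regions among them. The median region pileup was 23 and 21 in shCTR A and B and 20 and 16 in shMettl14 A and B. With no read totals or expression levels analysed, depth, transcript level and a general difference in m6A cannot be told apart in it. After division by the list median, 3 of the 6 regions, Col1a1 and (through its summit outside the window) Klf4 among them, were lower in both shMettl14 lists, against 14.5% of all regions and 15.4% of stop regions. For Col1a1 the scaled values were 2.87, 2.29, 1.85 and 1.94, and for Klf4 they were 2.09, 1.90, 1.70 and 1.5. Unlike fold enrichment, a pileup is not set against background. By within-list rank of the highest fold enrichment per region, the change in shMettl14 was −0.297 for Col1a1 and −0.502 for Klf4 (limma, unadjusted p = 0.569 and 0.319). It was −0.965 for Pdgfra, 0.517 for Col5a2 and 0.260 for Fbln2, in normal score units.

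Stop regions were mostly present in both groups. A peak in all 4 lists was found in 1804 of 2865 stop regions (63.0%), against 47.4% of the 5228 other regions with an exonic summit. A region seen in more lists has more chances to hold a stop summit in 1 of them, which can favour stop regions. Both shCTR lists and neither shMettl14 list had a peak in 41 stop regions (1.43%), against 1.71% of all 11361 regions. Both shMettl14 lists and neither shCTR list had one in 29 (1.01%), against 1.79% of all regions. With equal numbers of top summits per list the counts were 72 and 14 of 2507 stop regions (2.87% and 0.558%), against 3.66% and 1.01% of all regions under that setting. Which count was larger depended on the setting. Without shCTR A they were 91 and 132 (3.40% and 4.93%, against 6.27% and 6.47% of all regions). Without shMettl14 B they were 69 and 187 (2.49% and 6.76%, against 3.13% and 14.4% of all regions). When the overlap files that the authors deposited for each hairpin were used, 1752 stop regions overlapped both (61.2%) and 717 neither (25%). Only the shCTR file was overlapped by 220 (7.68%), against 8.21% of all regions, and only the shMettl14 file by 176 (6.14%), against 7.38% of all regions.

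The mean percentile of fold enrichment had a median of 26.2 over the 41 shCTR-only regions (2.82 to 66.8) and 35.2 over the 29 shMettl14-only regions (2.46 to 56.5). The highest shCTR-only regions were those of Myom1, a sarcomere M-band gene, at 9.43 and 10.2, and Arhgap5, a GTPase activator, at 9.85 and 8.85, followed by Zfp26, Tbl1xr1 and the metabolic kinase gene Pdk4. The highest shMettl14-only regions were those of Lin54, a cell cycle DNA-binding factor, at 7.49 and 9.35, and Sephs2, of selenoprotein synthesis, at 7.89 and 7.25, followed by Nol4l, Rpusd1 and Tubg1. At these 10 regions the stop summit pileups were between 6 and 20 fragments.

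The within-list rank of fold enrichment was compared between shMettl14 and shCTR over 4929 regions shared by the 4 lists (limma, Benjamini-Hochberg over all regions). At an adjusted p under 0.05, 0 regions were called (0%). Among the 1804 stop regions, 37 were higher (2.05%) and 43 lower (2.38%) in shMettl14 at an unadjusted p under 0.05, against 2.41% and 2.52% of all regions. The median rank change of stop regions was 0.00735 normal score units, and 889 of them (49.3%) were below 0, against 49.9% of all regions. A loss of equal size everywhere would not move ranks and is outside the reach of the test.

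The regions with the smallest unadjusted p in the limma fit had an adjusted p of 0.796. The rank change was 1.92 (SE 0.494) for Sdf2 and −1.69 (SE 0.513) for Cd2ap, which had the smallest p in each direction. Sdf2, an endoplasmic reticulum protein gene, had fold enrichments of 5.02 and 5.11 in shCTR A and B and 10 and 11.4 in shMettl14 A and B. Tmem189 had 4.67, 6.98, 13.3 and 10.7, Tmem263 5.89, 7.31, 12.3 and 14.7, and Vangl1, a planar cell polarity gene, 8.50, 6.29, 7.42 and 16.2. In the other direction, Cd2ap, an adaptor of actin and membrane traffic, had 14.0 and 8.57 in shCTR and 5.45 and 5.18 in shMettl14. Ndc1, a nuclear pore gene, had 10.3, 12, 4.64 and 6.25, 2310057M21Rik 15.3, 11.6, 6.92 and 5.93, and Tigd5 7.61, 6.24 and 3.62, with no stop summit in shMettl14 A. In Sdf2, Tmem189, Tmem263, Cd2ap, Ndc1 and 2310057M21Rik the groups did not overlap, which the choice of regions by this test favoured.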

How the data were processed

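m6A-RIP-seq was done on 2 IP and 2 input samples per hairpin. Per the labels and methods the authors aligned reads to mm10 with STAR, kept uniquely mapped reads (SAMtools), and ran MACS2 on every IP with its input as background; versions and options are not given in the sources used here. The 4 deposited lists hold fold enrichment (a ratio of IP to background) and −log10 p and q per summit, and the authors deposited 1 file per hairpin of intervals shared by its replicates (BEDTools), with no value. No counts or read totals were analysed, so depth is unknown beyond the pileups solved from the deposited ratio and −log10 p (largest error 0.000151); these carry counting error only.

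Groups came from sample titles. Summits were placed on GENCODE M21 (GRCm38), with 1 complete coding transcript per gene (21515). Summits in exons of several genes (83 to 124 per list) were left out. Lists were compared by exact permutation tests, and regions by limma 3.58.1 (R 4.3.3) on normal scores of within-list ranks, with Benjamini-Hochberg adjustment at 0.05. Other steps ran in Python 3.11.15 (SciPy 1.17.1, pandas 2.3.3, NumPy 2.4.6), and scripts were tested on simulated data. Named genes were the 10 highest regions in all 4 lists, the 5 highest of each 1-group set, the 4 smallest p in each direction, up to 4 per gene list, the study's 9 genes, the 5 highest without introns and with the stop codon upstream of the terminal exon, and the 5 with most summits. Htr1b was named after its values were seen. Members and lists were chosen with earlier results of these data known. Alternatives covered the window, the point taken for a peak, equal list sizes, transcript choice, motif and junction distances, other measures of strength, the replicate block and leaving out each list. Some genes that the rule names are not reported here.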

Additional observations from a re-analysis of the deposited data

How the results depend on the processing

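Single lists rest on few fragments per summit, which limits what can be said of any single region, and 2 lists per group cannot give an exact p below 0.333. The stop summit share difference (−0.504 points) changed sign with windows of 100 nt (0.0318) and 400 nt (0.0631) and ran from −1.36 to 0.354 when each list was left out, turning without shMettl14 A. The UTR side difference (1.04 points) became −0.394 with a window of 100 nt and ran from 0.00633 without shCTR B to 2.07 without shCTR A. With the replicate block both stayed at −0.504 and 1.04. The letters A and B mark no stated pairing; deviations of the A lists from their group means correlated at 0.0795 over 4929 regions, and the replicate block moved the stop regions at unadjusted p from 80 to 102 (4.43% to 5.65%, against 4.93% to 5.92% of all regions) and left 0 at adjusted p. The terminal exon share (98.4%) was 99% and 96.0% with windows of 100 and 400 nt. Stop regions in all 4 lists (63.0%) were 43.8% when each list needed a stop summit and 60.8% with equal numbers of top summits. The shCTR-only count (41) was 73 and 72 under these settings, and 69 to 175 when each list was left out (2.49% to 6.43% of stop regions, against 3.13% to 11.3% of all regions). The shMettl14-only count (29) was 107, 14, and 67 to 187 (2.43% to 6.76%, against 3.51% to 14.4%). When each list needed a stop summit, the shMettl14-only count was thus the larger (107 against 73). No share over all regions was computed for that setting, so these 2 counts have no background beside them. In each of these leave-one-out settings and with equal numbers of top summits, both shares of stop regions were below those of all regions. The number of the 6 study regions with lower pileup in both shMettl14 lists went from 5 to 3 after division by the list median, an alternative chosen after seeing the data. Fisher's exact test on pileups gave 40 stop regions at unadjusted p (2.22%, against 2.56% of all regions) and 0 at adjusted p. In the rank fit, leaving out a list leaves 1 list in a group that is taken to vary like the other group, so only an effect size is given. Without shMettl14 A the rank change of Htr1b was −3.04, against −1.84 with all lists (limma adjusted p = 0.796). The 4929 regions were kept. The junction ratio stayed below 1, at 0.299 to 0.544, and the percentile and GGACT differences above 0, at 2.34 to 7.82 and 1.89 to 4.69 points, under every alternative run.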
